A study of Homo sapiens with 6 samples.

Results

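The baseline transcriptome was described for the 3 negative control (NC) siRNA libraries, NC1, NC2 and NC3, out of 6 libraries in the series. They were chosen by their labels, and the HOXA3 siRNA libraries entered no value given here. All came from 1 human embryonic stem cell line of wild-type genotype, H9 (WA09), which had been kept on a feeder layer of mouse embryonic fibroblasts for 5 days. Endodermal induction used Activin A at 100 ng/ml, with WNT3A at 50 ng/ml and Y-27632 at 10 μM on the first day and 0.5% B27 afterwards. On day 4 the cells were moved to Matrigel, and the medium from then on held BMP4 at 20 ng/ml, RA at 1 μM, IWP2 at 2.5 μM and SB431542 at 10 μM, besides B27. NC siRNA was delivered with Lipofectamine on day 7, at a density of 70% to 80%, opti-MEM replaced the medium some hours later, and cells were collected on day 9. SB431542 inhibits Activin and Nodal type I receptors, IWP2 inhibits the secretion of Wnt ligands, and RA is retinoic acid. The study describes its repeats as biological and independent, but the sample labels only number the libraries, so what the spread between them covers beyond that is not known here. No untransfected culture was analysed.

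The cells are labelled as the third pharyngeal pouch endoderm, the outpocketing of the foregut that gives rise to the thymus and the inferior parathyroid glands. Its cells are epithelial and are known for the transcription factors HOXA3, PAX1, PAX9, EYA1, TBX1 and FOXI3. Bulk RNA sequencing averages over all cells in the dish, so fewer cells of a type and less RNA per cell cannot be told apart.

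The data went against the label in part. Of 20 pouch genes, 7 had at least 1 CPM (the gene's counts divided by the library's total and multiplied by 1000000) in every NC library, and 7 had 3 counts or fewer in every one. Over all 19951 protein-coding genes these numbers were 12492 and 4784. PAX1, PAX8 and NKX2-1 had 0 counts in all 3 libraries, which allows up to 0.202 CPM in the shallowest library (3 counts, counting error only). TBX1 had 10, 0 and 1 counts and PAX9 had 0, 16 and 12 in NC1, NC2 and NC3. PAX1, PAX9 and TBX1 were thus at or near the limit of detection, whereas HOXA3, EYA1 and FOXI3 were detected in every library. PAX8 and NKX2-1 are better known from the thyroid. Detected members included SIX4, EYA1, FOXI3, HOXA3, ISL1 and SOX2, and RIPPLY3 lay at the boundary with 18, 25 and 15 counts. SIX4 had 50.7 CPM ± 5.81 (SD, n = 3), EYA1 had 36.3 ± 4.01 and FOXI3 had 24.3 ± 3.32. HOXA3 itself had 248, 240 and 236 counts, or 16.7, 15.8 and 15.5 CPM. The name NC cultures is therefore used below, with no cell type name.

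The 3 libraries held between 14885355 and 15191386 counts over 58735 annotated genes. Protein-coding genes took 97.1%, 97.3% and 97.3% of them. Of 19951 protein-coding genes, 12492 had at least 1 CPM in every library and 3335 had no count in any. Among those at 1 CPM or more, the median gene had a mean of 33.9 CPM. The number of protein-coding genes at 1 CPM or more was 13004, 12838 and 12826 in NC1, NC2 and NC3, and the number at 100 CPM or more was 2313, 2316 and 2339.

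Abundance was spread over many genes, with no gene taking more than 1.69% of a library. The 100 most abundant genes held 18.9%, 18.9% and 18.1% of the counts, and 1098, 1098 and 1121 genes were needed to reach 50%. To reach 90% took between 6313 and 6357 genes. Only 61 protein-coding genes had 1000 CPM or more in every library.

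**Figure D1:**
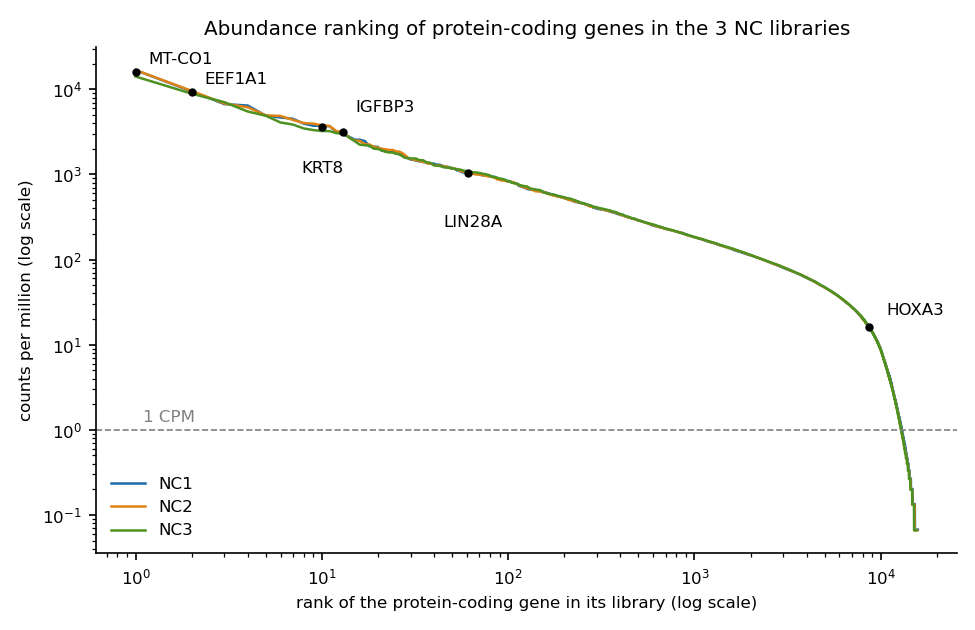
CPM of each protein-coding gene with a count (vertical axis, log scale) against its rank within the library (horizontal axis, log scale), 1 line for each NC library. Points mark the mean CPM of 6 genes, from MT-CO1 at 15943 CPM to HOXA3 at 16.0 CPM, and the lines of the 3 libraries lie on each other below the first 20 ranks.

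EEF1A1, the elongation factor that carries aminoacyl-tRNA to the ribosome, was the protein-coding gene of the nuclear genome with the most counts. It had 9483, 9588 and 8900 CPM in NC1, NC2 and NC3. AHNAK, which encodes a giant scaffold protein under the plasma membrane, followed with 6709, 6151 and 7061 CPM. Both genes had non-overlapping ranges, with EEF1A1 above AHNAK in each library. The cytoskeleton gave ACTB with 4813 CPM ± 122, ACTG1 with 2594 ± 115, TPM1 with 3228 ± 87.5 and TUBB with 2198 ± 81.7 (SD, n = 3). These encode the cytoplasmic actins, a tropomyosin and a beta tubulin.

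Lipid synthesis held a pair of places among these 20 genes. SCD, the desaturase that makes monounsaturated fatty acids, had 3945, 4016 and 4079 CPM. FASN, the fatty acid synthase, had 2565, 2479 and 2461 CPM. Both had small spreads, with a coefficient of variation (CV, the SD as a percentage of the mean) of 1.66% for SCD and 2.22% for FASN. KRT8, a keratin of simple epithelia, had 3725, 3706 and 3472 CPM. IGFBP3, a secreted carrier of insulin-like growth factors, had 2940, 3181 and 3239 CPM and was lowest in NC1.

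The remaining genes of the 20 served translation and protein folding, apart from GAPDH and PRTG. EEF2, which moves the ribosome along the mRNA, had 2306 CPM ± 148, and PABPC1, the cytoplasmic poly(A)-binding protein, had 2029 ± 164. Ribosomal proteins RPLP0, RPL4 and RPL3 had 2023 ± 164, 1947 ± 57.0 and 1714 ± 84.2 CPM. The chaperones HSP90AB1 and HSP90AA1 had 1907 ± 40.3 and 1779 ± 78.6 CPM, and the initiation factor EIF4G2 had 1800 ± 65.2. GAPDH, of glycolysis, had 1766 ± 30.5 CPM. PRTG, protogenin, a membrane protein of the immunoglobulin superfamily found in early embryos, closed the 20 with 1433, 1510 and 1639 CPM. GNAS, the next gene by mean, had 1543, 1568 and 1468 CPM and was above PRTG in NC1 and NC2. The order of PRTG and GNAS was thus not larger than the spread. Together the 20 genes held 6.09% ± 0.0438 of the counts.

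Some of these counts could belong to other genes. EEF1A1 shares 20.4% of its 50-base stretches with other annotated genes, mostly pseudogenes, HSP90AB1 shares 16.6% and TUBB 14.2%. Exons on the opposite strand cover 21.4% of the exon bases of TPM1, 16.0% of those of TUBB and 14.2% of those of GAPDH. No source used here stated whether counting used strand, and without strand the reads of such partners cannot be told apart.

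CPM favours long genes, so levels were also set per length as TPM (counts divided by the merged exon length and scaled to sum to 1000000 in each library). Of the 20 genes by CPM, 12 were also among the first 20 by TPM. By mean, EEF1A1 came first with 6186 TPM ± 163, followed by FTL, the ferritin light chain, with 6007 ± 584 and ACTB with 5400 ± 208. In NC1 FTL was above EEF1A1, with 6589 against 6216 TPM, so their order was not larger than the spread. With the length of each gene's longest transcript in place of merged exons, ACTB came first. AHNAK, with 19465 bases of exon, was 31st at 1347 TPM. TPM1, with 12876 bases of merged exons, was 53rd at 990 TPM. Its place depended on the length used. With the longest transcript of each gene, which has 3957 bases for TPM1, it was 11th at 2453 TPM. The keratins KRT19, KRT8 and KRT18 had 2136, 2084 and 1827 TPM and took places 15, 16 and 19.

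Some of the most abundant genes share promoter features that the ranking did not use, and 6 are printed to show them. Each is the sense strand from 40 bases before to 20 bases from the RefSeq start (GRCh38.p14, reference genome). Capitals mark TATAAA or TATATA between 45 and 16 bases before the start, and a C at the first transcribed base with the unbroken run of C or T that follows it where at least 4 follow.
EEF1A1, chr6:73521013-73521072, minus strand: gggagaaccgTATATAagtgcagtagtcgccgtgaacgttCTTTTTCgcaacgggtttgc
EEF2, chr19:3985444-3985503, minus strand: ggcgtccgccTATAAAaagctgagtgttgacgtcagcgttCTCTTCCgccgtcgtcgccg
RPLP0, chr12:120201092-120201151, minus strand: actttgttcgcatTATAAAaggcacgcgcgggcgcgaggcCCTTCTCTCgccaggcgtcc
IGFBP3, chr7:45921253-45921312, minus strand: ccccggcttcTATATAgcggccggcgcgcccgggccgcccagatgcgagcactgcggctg
SCD, chr10:100347193-100347252, plus strand: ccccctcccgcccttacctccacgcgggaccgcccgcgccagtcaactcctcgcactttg
KRT8, chr12:52926450-52926509, minus strand: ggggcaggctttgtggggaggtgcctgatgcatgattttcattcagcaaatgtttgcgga

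EEF1A1, EEF2 and RPLP0 held both features, IGFBP3 held the TATA letters only, and SCD and KRT8 held neither. Of the 17 genes among the 20 by CPM that had a promoter in the table, 6 held the TATA letters, 4 the pyrimidine start and 3 both. A start of this kind is the 5′ terminal oligopyrimidine tract by which mRNAs of the translation machinery are known. It was found in 18 of the 50 genes of highest TPM with a promoter in the table (36.0%), against 4.60% of 14896 protein-coding genes with a promoter. Among those 50 it was found in 13 of 19 ribosomal protein genes and in 5 of the 31 others. The TATA letters were found in 13 of the 50 (26.0%), against 4.66% of all. Among 10232 genes with a mean of 1 CPM or more, 2.01% held the TATA letters and 5.39% the pyrimidine start, and among 2153 genes with no count in any NC library the shares were 13.9% and 3.02%. Only the sense strand was searched, and a match is a description of the letters, not of a site in use.

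The mitochondrial genome, ranked apart, held the most abundant gene of all. MT-CO1, a subunit of cytochrome c oxidase, had 16812, 16864 and 14152 CPM. MT-ND4 and MT-ND5, of complex I, had 6251 ± 685 and 3514 ± 413 CPM. MT-CO2, MT-CO3, MT-ATP6 and MT-CYB lay between 2496 and 4571 CPM. All 13 protein-coding genes of this genome had at least 1 CPM in every library, the lowest being MT-ATP8 at 21.5 CPM ± 5.09. MT-CO1 shares 49.5% of its 50-base stretches with nuclear copies, so its counts are uncertain where reads could fall on either.

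By functional class, the 13 mitochondrial genes held 4.95%, 5.00% and 4.02% of the counts in NC1, NC2 and NC3. The 88 cytosolic ribosomal protein genes held 3.81%, 3.73% and 4.18%. NC3 was thus the lowest library for the first class and the highest for the second. Translation factors took 2.33% ± 0.0519, actin, tubulin and myosin light chain genes took 1.79% ± 0.0316, and chaperones took 1.71% ± 0.0317. Splicing and hnRNP genes took 1.32% ± 0.0319. The 55 keratin genes took 0.707% ± 0.00476, of which only 9 were at 1 CPM or more in every library. Glycolysis took 0.552% ± 0.00389, the nuclear respiratory chain 0.434% ± 0.0259, the proteasome 0.376% ± 0.0132 and histones 0.203% ± 0.00946. Metallothioneins, which bind zinc and copper, took the smallest share of the 12 classes, 0.00497% ± 0.00229.

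**Figure D2:**
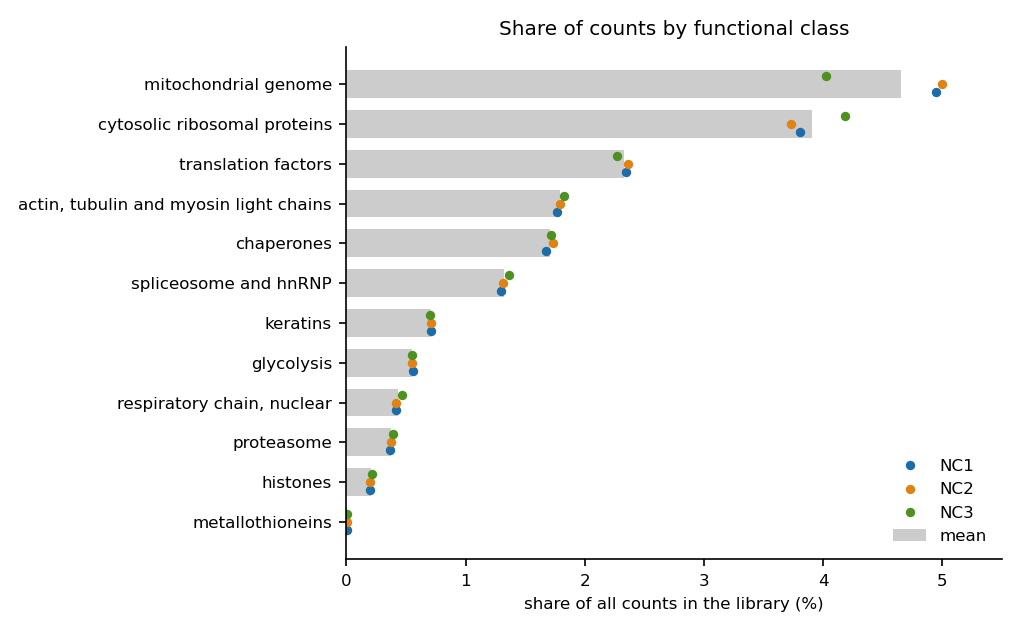
Share of each library's counts (horizontal axis, percent) held by 12 functional classes (vertical axis), with points for NC1, NC2 and NC3 and a bar for their mean. The mitochondrial genome and the ribosomal proteins show the widest gaps between libraries, with NC3 at 4.02% and 4.18%.

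The list of transcription factors had 631 genes, of which 345 were at 1 CPM or more in every library, 100 had no count in any and 50 were at 100 CPM or more. Of all 19951 protein-coding genes, 12492 were at 1 CPM or more in every library and 3335 had no count in any. Together they held 2.08% ± 0.0222 of the counts. ID1 came first with 1090, 1171 and 1261 TPM. ID1, ID2 and ID3 have no DNA-binding domain and hold back basic helix-loop-helix factors, and BMP signalling is known to induce them. ID3 followed in place 8 with 311 TPM ± 42.8 and ID2 in place 13 with 191 ± 20.4, and all 3 were highest in NC3.

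EPAS1, the hypoxia factor HIF-2 alpha, was next to ID1 with 800, 794 and 849 TPM, and its relative HIF1A had 284, 317 and 325 TPM. HAND1, a basic helix-loop-helix factor of extraembryonic tissues and the early heart, had 745, 713 and 818 TPM. The ranges of EPAS1 and HAND1 overlapped, so their order was not larger than the spread. GATA3, a zinc finger factor of trophoblast, amnion and T cells, had 365, 334 and 304 TPM. ATF4, of the integrated stress response, had 490 TPM ± 33.4, and MYBL2, a cell cycle factor, had 395 ± 27.3.

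SREBF2, which drives genes of cholesterol synthesis, had 330, 328 and 323 TPM, the smallest spread of these 15. JUND, an AP-1 subunit, had 312, 277 and 214 TPM. TEAD3 and TEAD1, the DNA-binding partners of YAP, had 198 ± 11.1 and 186 ± 19.2 TPM. NR2F6, an orphan nuclear receptor, had 195 ± 21.0, and TFDP1, a partner of E2F factors, had 178 ± 15.1 TPM. Of the 14 pairs of neighbours in the order, 10 overlapped in their ranges, and the first 15 genes held 36.5% of the summed TPM of the list.

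The list of surface protein genes had 232 members. It left out some membrane proteins, such as PRTG at 414 TPM and the transporter SLC38A1 at 517 TPM. Of its members, 178 were at 1 CPM or more in every library and 62 at 100 CPM or more. The first number compares with 12492 of all 19951 protein-coding genes. CLDN6, a tight junction claudin of embryonic epithelia, came first with 1344, 1460 and 1485 TPM, above every other member in each library. CD24, a small glycosylated surface protein, had 807, 865 and 902 TPM. GABRP, the pi subunit of the GABA-A receptor, had 731, 819 and 899 TPM, and VTCN1, the immune checkpoint ligand B7-H4, had 682, 739 and 810 TPM. All 4 were lowest in NC1 and highest in NC3.

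Transporters followed. SLC7A5, a carrier of large neutral amino acids, had 655, 642 and 627 TPM, and the glucose transporters SLC2A3 and SLC2A1 had 479 ± 8.22 and 376 ± 6.49 TPM. The epithelial adhesion proteins CDH1, CDH3 and EPCAM had 424 ± 8.14, 417 ± 15.8 and 413 ± 18.4 TPM, with LY6E between them at 422 ± 22.9. The ranges of these 4 overlapped, so no order among them was larger than the spread. BSG had 391 ± 15.6 TPM, the desmosomal cadherin DSG2 had 356 ± 26.6, the heparan sulphate proteoglycan SDC4 had 328 ± 7.55 and the chemokine scavenger ACKR3 had 316 ± 24.1.

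By the share of summed TPM in the first 15 genes, secreted proteins were the most concentrated of the 4 lists. The first 15 of 208 genes held 84.3% of the summed TPM, against 49.2% for surface, 70.6% for matrix and 36.5% for transcription factors. These shares depend on how the lists were made. The other lists had 232, 128 and 631 genes, and matrix proteins were kept apart from the secreted ones. IGFBP3 came first with 2508, 2734 and 2846 TPM. S100A11 followed with 2319, 2346 and 2144 TPM, and MDK, midkine, a heparin-binding growth factor, had 1659, 1467 and 1663 TPM. S100A11 and S100A10, at 743 TPM ± 43.9, are calcium-binding proteins that act mainly inside the cell, although the list's name pattern holds them. PTN, the relative of midkine, had 741, 878 and 934 TPM.

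APOE, a lipid carrier, had 1165, 1097 and 1218 TPM. FSTL1 had 635 ± 37.5 TPM, and the other IGF-binding proteins IGFBP5 and IGFBP2 had 608 ± 29.8 and 317 ± 17.2. PRSS8, a serine protease of epithelia, had 304 ± 39.8, and SFRP1, a secreted antagonist of Wnt ligands, had 281 ± 8.78. SPP1, osteopontin, had the largest spread of the 15 relative to its mean, with 322, 275 and 184 TPM. GRN, MMP2 and MMP14 had 209 ± 14.1, 197 ± 4.95 and 197 ± 20.0 TPM. MMP14 is anchored in the membrane and is known to activate MMP2.

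Of 128 matrix genes, 96 were at 1 CPM or more in every library and only 3 had no count in any. Over all 19951 protein-coding genes these numbers were 12492 and 3335. LUM, lumican, a small proteoglycan that binds collagen fibrils, came first with 1352, 1511 and 1656 TPM. Its lowest library lay above the highest of the next gene, SPARC, a collagen-binding glycoprotein, which had 611, 625 and 621 TPM. FBLN1, LAMC1 and COL1A1 followed with 570 ± 10.4, 561 ± 4.01 and 549 ± 17.1 TPM, in overlapping ranges.

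Both interstitial collagen and basement membrane genes were present among the 15. The fibrillar collagens COL1A1, COL3A1 and COL1A2 had 549 ± 17.1, 542 ± 13.4 and 346 ± 10.5 TPM. The laminin chains LAMC1, LAMB1 and LAMA5 had 561 ± 4.01, 522 ± 4.10 and 332 ± 34.3 TPM, and the basement membrane proteoglycan HSPG2 had 262 ± 23.1. TGFBI, TNC, COL12A1, FN1 and HAPLN1 lay between 249 and 419 TPM.

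**Figure D3:**
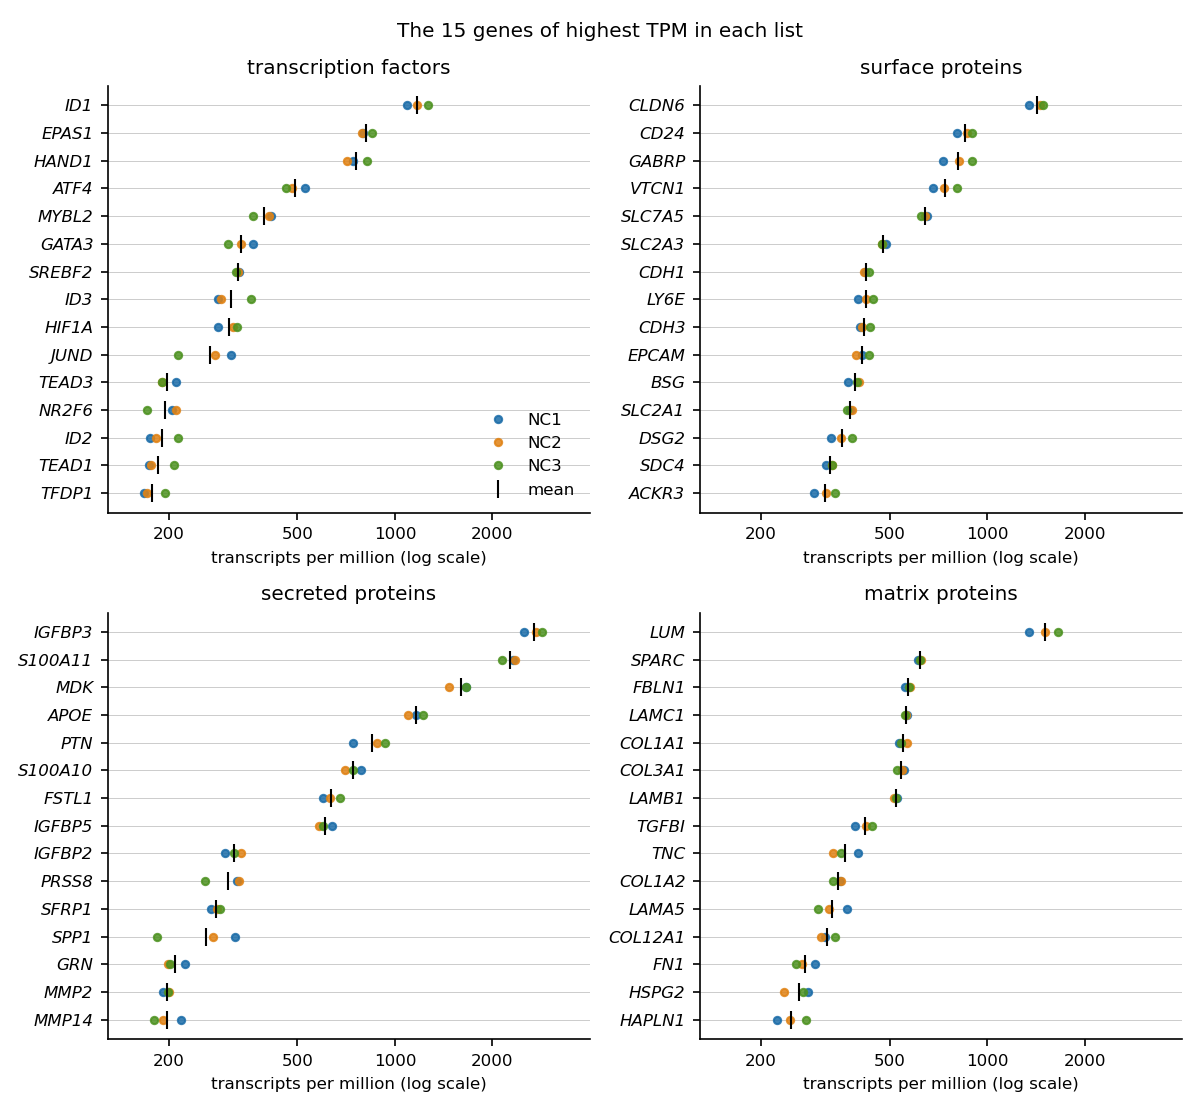
TPM (horizontal axis, log scale) of the 15 genes of highest mean TPM in the lists of transcription factors, surface, secreted and matrix proteins (vertical axis), with points for NC1, NC2 and NC3 and a black tick for the mean. ID1, CLDN6, IGFBP3 and LUM lie above the next gene of their list without overlap, and most lower neighbours overlap. By CPM, which favours long genes, EPAS1, GABRP and COL1A1 come first in place of ID1, CLDN6 and LUM.

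Markers of epithelium were high in every library. All 17 were at 1 CPM or more and 14 at 100 CPM or more, with a summed level of 11664 to 11907 CPM. For this and every marker list below, the share over all protein-coding genes was 12492 of 19951 at 1 CPM or more in every library. Besides KRT8, KRT18 had 1489 CPM ± 56.6 and KRT19 had 1264 ± 13.6, and the desmosomal plaque genes DSP and JUP had 869 ± 83.2 and 554 ± 44.1 CPM. ESRP1, an epithelial splicing factor, and GRHL2, an epithelial transcription factor, had 203 ± 5.83 and 151 ± 6.66 CPM. CLDN3 was the lowest member with 203, 195 and 118 counts.

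Definitive endoderm was hardly represented. Of 16 members 4 were at 1 CPM or more in every library and 7 had 3 counts or fewer in each, and the summed level was 70.0 to 79.7 CPM. SOX17 had 0 counts in all 3 libraries, FOXA2 had 2, 0 and 0, HHEX had 0, 1 and 1, and CER1 had 1, 0 and 1. These encode defining transcription factors of early endoderm, except CER1, a secreted antagonist of Nodal. GATA6, shared by endoderm and extraembryonic tissues, accounted for most of the sum with 801, 842 and 855 counts. The surface markers KIT and CXCR4 had 151, 232 and 252 and 33, 44 and 56 counts.

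Of 12 thymic epithelial genes 1, CD83, was at 1 CPM or more in every library. FOXN1, the master regulator of thymic epithelium, AIRE and KRT14 had no count, KRT5 had 0, 0 and 2, and the whole list summed to between 4.48 and 8.43 CPM.

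Most genes of the amnion and trophoblast list were detected, at widely differing levels, with a median of 14.5 CPM. Of 29 members 24 were at 1 CPM or more in every library, against 12492 of 19951 protein-coding genes, and 9 at 100 CPM or more. The sum ranged from 7387 to 7793 CPM, of which IGFBP3 gave 3120 ± 158. Apart from GABRP, VTCN1, HAND1 and GATA3, TFAP2A had 237 CPM ± 20.3, KRT7 had 663 ± 59.9, TNC had 887 ± 88.6 and BNC1 had 191 ± 9.97. Genes of the hormone-producing and fused trophoblast were lower. CGA had 17.4 CPM ± 2.36, GCM1 had 1.79 ± 0.329, ERVW-1 had 2.49 ± 0.806, and CGB5 had 2, 1 and 0 counts. The trophoblast stem cell factors CDX2 and ELF5 had 3, 9 and 4 and 7, 1 and 4 counts. IGFBP3, TNC, KRT7, GATA2 and GATA3 are also made by many other tissues, and ISL1 and HAND1 belong to more than 1 list.

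Mesodermal and mesenchymal genes divided. Of 17 members 11 were at 1 CPM or more and 7 at 100 CPM or more, with a sum of 5107 to 5273 CPM. The share of 11 in 17 was near that over all protein-coding genes, 12492 of 19951. COL1A1, LUM, COL1A2 and COL3A1 had 1365 ± 47.9, 1147 ± 98.9, 979 ± 44.0 and 936 ± 37.4 CPM, and VIM had 250 ± 20.3. Transcription factors of the list differed widely. HAND1 had 4942, 4783 and 5376 counts, HAND2 had 20, 34 and 11 and TBX6 had 21, 8 and 10, while TBXT had 0 in every library, MESP1 had 0, 3 and 4 and FOXF1 had 0, 2 and 1. TWIST1 had 68, 59 and 35 counts, and POSTN had 2, 5 and 2. PDGFRB had 114 CPM ± 10.9 and PDGFRA had 8.74 ± 1.08.

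The pluripotency list also divided. LIN28A, which blocks maturation of let-7 microRNA, had 15434, 15873 and 16231 counts, and with 1050 CPM ± 16.2 was 61st of all protein-coding genes. DNMT3B, L1TD1, SALL4, ZFP42 and DPPA4 had 145 ± 8.73, 145 ± 8.13, 142 ± 3.99, 129 ± 6.32 and 102 ± 7.63 CPM. The core factors were low, with 71, 87 and 90 counts of POU5F1, 58, 57 and 49 of SOX2 and 4, 0 and 0 of NANOG. TDGF1, UTF1, FGF4, DPPA5 and GDF3 had no count in any library. In all, 8 of 16 members were at 1 CPM or more in every library and 6 had 3 counts or fewer in each.

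Markers of other lineages were mostly near zero. Of 13 liver and yolk sac genes 2, AFP and APOB, were at 1 CPM or more in every library, and ALB had 0, 9 and 4 counts. Of 12 neural and neural crest genes NES was the only member at that level, with 71.4 CPM ± 9.77, while PAX6 had 0, 4 and 0 counts and FOXD3 had none. Of 10 endothelial and blood genes 4 were at that level, led by KDR with 93.2 CPM ± 3.73 and CDH5 with 22.1 ± 0.989. PECAM1, CD34, TAL1 and PTPRC had no count in any library. Of 6 cardiac genes 3 were at that level, led by TNNT2 with 12.2 CPM ± 0.412, and MYH6, MYH7 and NKX2-5 had none.

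**Figure D4:**
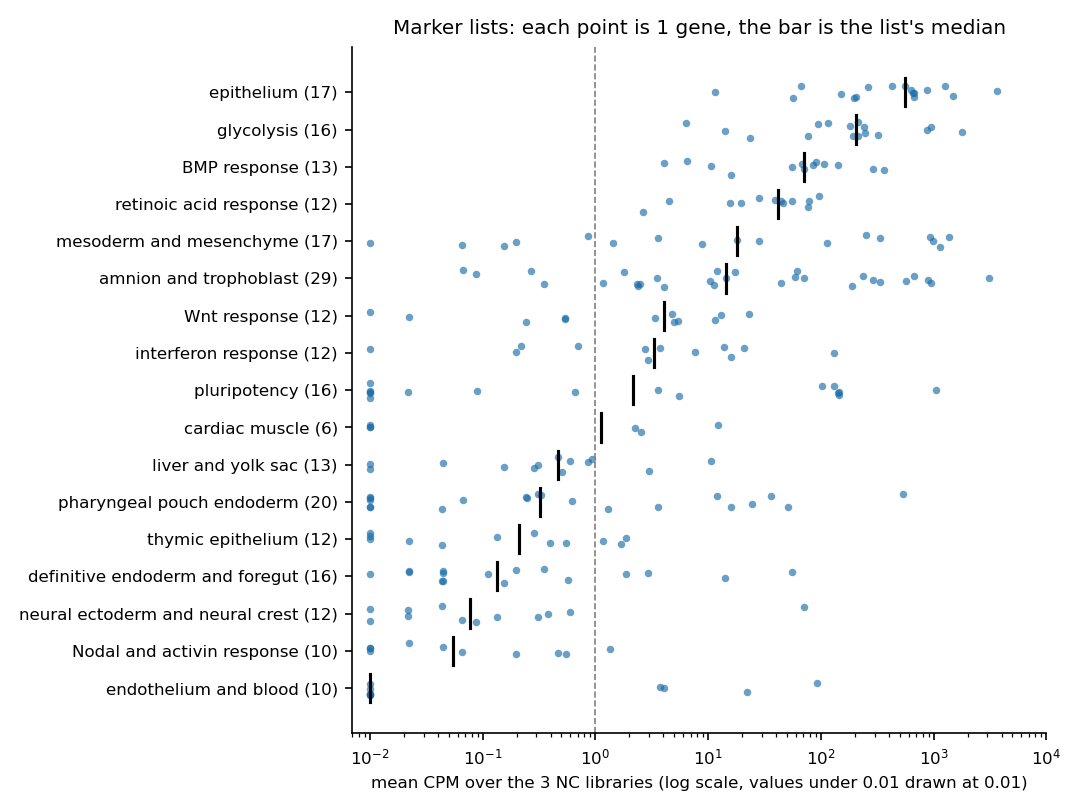
Mean CPM over the 3 NC libraries (horizontal axis, log scale, values under 0.01 drawn at 0.01) of every member of 17 marker lists (vertical axis, number of members in brackets), with a black bar at the list's median and a dashed line at 1 CPM. All 17 epithelial genes lie right of the line, and most definitive endoderm, thymic epithelial and Nodal response genes lie left of it.

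Genes that respond to the agents in the medium were described as levels only, since no culture without them was analysed here and opti-MEM had replaced the differentiation medium after the transfection on day 7. All 12 genes of the retinoic acid list were at 1 CPM or more in every library, with a median of 41.4 CPM. Of all 19951 protein-coding genes 12492 were at that level, and the median among those was 33.9 CPM. CYP26A1, which degrades retinoic acid, had 82.4, 97.9 and 109 CPM. RARB, a retinoic acid receptor, had 77.5 CPM ± 8.17. CRABP2, which carries retinoic acid to its receptors, had 77.9 CPM ± 11.3, while CYP26B1 had 2.65 ± 0.458.

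All 13 genes of the BMP list were at 1 CPM or more, against 12492 of 19951 protein-coding genes, with a median of 70.6 CPM. Besides ID1, the inhibitory receptor-like BAMBI had 67.5 CPM ± 4.44, SMAD6, an inhibitor of the pathway, had 55.6 ± 5.39, and the homeobox gene MSX2 had 84.6 ± 4.63. MSX1 had 114, 110 and 68 counts, and DLX5 was the lowest member at 4.02 CPM ± 0.349.

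Of 10 Nodal and Activin genes none was at 1 CPM or more in every library, and their sum was 2.31 to 3.09 CPM. LEFTY1 had no count, LEFTY2 had 0, 0 and 3, and NODAL had 10, 4 and 7. Of 12 Wnt genes 7 were at 1 CPM or more, near the share over all protein-coding genes, 12492 of 19951. AXIN2, a target and inhibitor of the pathway, had 48, 47 and 58 counts, LEF1 had 155, 173 and 196, SP5 had 1, 0 and 0, and DKK1 had none. ZNRF3, which removes Wnt receptors, was the highest with 22.8 CPM ± 3.54.

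Of 12 interferon response genes, a list read because transfected RNA can induce them, 8 were at 1 CPM or more. That share was near the one over all protein-coding genes, 12492 of 19951, so the count is not particular to the list. IFIT1 had 45, 42 and 46 counts, IFIT2 had 3 in each library, MX1 had 51, 35 and 39, and IFI44L had none. No untransfected culture was analysed, so a response to transfection was not tested.

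All 16 glycolysis genes were at 1 CPM or more, 10 of them at 100 CPM or more. Per length, GAPDH had 2339 TPM, ENO1 653, PGAM1 495, PKM 436 and TPI1 357. ALDOA, named after its values were seen, stood apart with 140, 89 and 59 counts and 6.41 TPM, although its enzyme, an aldolase, acts between PFKL and TPI1 in the pathway. In the annotation 53.5% of its exon bases lie within exons of another gene, and 42.3% of its exon bases lie in AC093512.2, which had 16, 33 and 17 counts. Across the table, of 525 protein-coding genes with at least 90% of their exon bases inside another gene, 0.191% were at 1 CPM or more in every library, against 34.1% of the 608 with 50% to 90%, the class of ALDOA, and 65.2% of the 18805 with under 50%. How reads in shared exons were counted is not given in the sources used here, so a low value of a gene with much overlap may not be a low level, and its part in the value of ALDOA was not tested.

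Among non-coding genes MT-RNR2, the large mitochondrial ribosomal RNA, had 5414, 5191 and 4389 CPM and MT-RNR1, the small one, had 552, 411 and 330. H19, an imprinted RNA transcribed from the maternal chromosome, had 1140, 1054 and 1308 CPM. MALAT1, a nuclear RNA, had 960, 723 and 746 CPM, and SNHG14, the host of a snoRNA cluster, had 436, 427 and 468. Long non-coding genes as a whole took 1.30%, 1.21% and 1.28% of the counts.

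The spread between libraries was small for most genes. Over 9778 protein-coding genes with a mean of 10 CPM or more, the median CV was 6.85%, and counting error alone gave 3.70%. At 10 to 30 CPM the median CV was 9.58% and at 1000 CPM or more it was 4.99%, where counting error gave 5.96% and 0.697%. The biological coefficient of variation, the spread left beyond counting error in edgeR's common dispersion, was 7.90%. NC1 and NC2 differed by a median of 0.10 on the log2 scale, NC2 and NC3 by 0.10 and NC1 and NC3 by 0.14. More than a 2-fold difference was seen in 4, 0 and 7 genes of these pairs. The variance over genes was 4.51, 4.17 and 7.90 times that of counting error, so no pair of libraries agreed within it.

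Gene by gene, NC1 was the library farthest from the median library in 3912 of the 9778 genes, NC3 in 3688 and NC2 in 2178. Some deviations of NC3 were shared by groups of genes. In NC3 the mitochondrial genes had a median of -0.32 on the log2 scale against the mean of the other libraries, with 11 of 13 lowest there and none highest. Ribosomal protein genes had a median of 0.16, with 54 of 81 highest in NC3, and nuclear respiratory chain genes had 0.18, with 50 of 70 highest. Over all protein-coding genes the median was 0.02, with 3969 of 9778 highest in NC3 and 3182 lowest there. FTH1 and RPL37A, named after their values were seen, also stood apart in NC3. FTH1, the ferritin heavy chain, had 539, 585 and 295 CPM, and RPL37A had 375, 287 and 548. The cause was not tested.

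Of the 10 protein-coding genes with the largest CV, 5 have a near-identical copy, taken here as another gene that holds at least 25% of their 50-base stretches. Of all 9778 genes, 194 have one (1.98%). CBSL had 641, 244 and 197 counts, a CV of 68.8%, and shares 91.0% of its 50-base stretches with CBS. Summed over both copies, the CV was 19.8%. In the same way GPR89A went from 43.6% to 13.4% with GPR89B, U2AF1 from 42.3% to 22.4% with U2AF1L5, and CCZ1 from 36.4% to 17.8% with CCZ1B. EIF3C, with 155, 373 and 201 counts, went from 46.7% to 38.5% with EIF3CL. The counts of these genes are uncertain, since reads could be assigned to either copy, and the sums were added after the data were seen.

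The 5 others have no such copy. MT2A, a metallothionein, had 768, 337 and 303 counts, and was 51.6 CPM in NC1 against 22.2 and 19.9. MT1E, its relative, had 10.9, 11.1 and 9.02 CPM and did not follow it. ZNF503 had 235, 189 and 109 counts, GLIS2 had 277, 194 and 134, PRR36 had 285, 258 and 135, and AEBP1 had 412, 288 and 203. All 4 were highest in NC1 and lowest in NC3, with a CV of 36.0% to 36.8%.

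**Figure D5:**
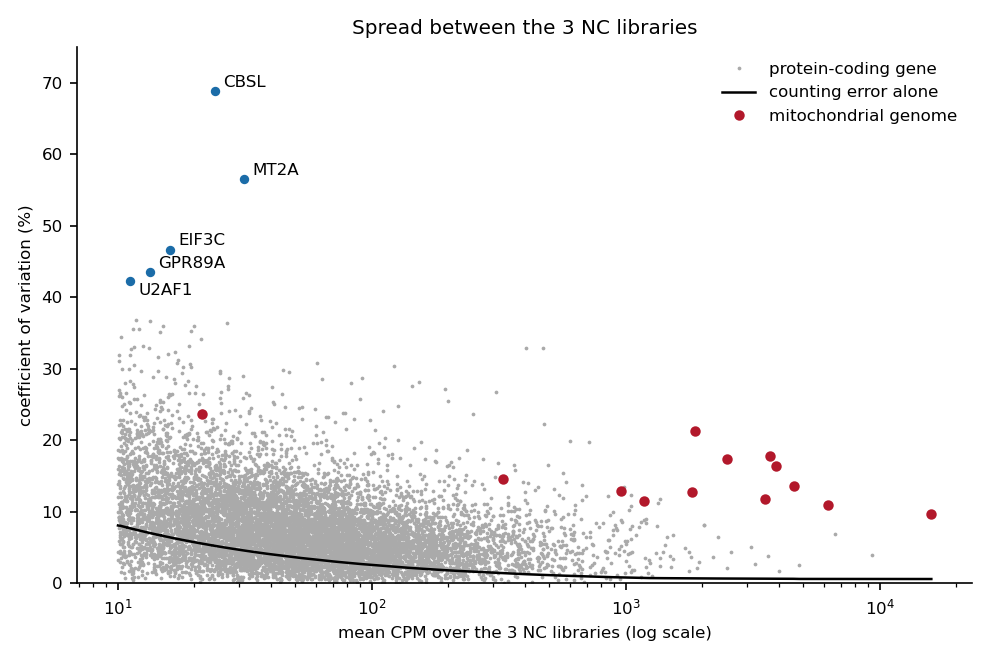
Coefficient of variation between the 3 NC libraries (vertical axis, percent) against mean CPM (horizontal axis, log scale) for 9778 protein-coding genes, with the value counting error alone gives as a black line. The 13 mitochondrial genes (red) lie above most genes of like level, and CBSL and MT2A (blue, with the next 3 genes) have the highest values at 68.8% and 56.5%.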

How the data were processed

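RNA of the 3 NC cultures was sequenced after libraries were made from 100 ng of total RNA. The authors deposited 1 table of whole-number counts per gene, with no normalization. The aligner and counter are not given in the sources used here. The submitters' processing notes name the mouse builds GRCm38 and mm10, whereas all 58735 gene identifiers matched the human GENCODE release 29, from which names, types, exons and lengths were taken. The libraries held 14885355 to 15191386 counts, so 3 counts correspond to at most 0.202 CPM. Nothing was tested between groups, and the HOXA3 siRNA columns were not used here.

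Counts were divided by the library total (CPM) and by merged exon length (TPM) in Python 3.11.15 with pandas 2.3.3. Dispersion was estimated with edgeR 4.0.16 in R 4.3.3 and checked on simulated data. Genes named are the 20 protein-coding genes of highest CPM, with the 10 of highest level per length among them and the mitochondrial genome apart; the 15 of highest TPM in each of 4 lists with at least 10 counts in every library; the 5 non-coding genes of highest CPM; the members of 17 marker lists; and the 10 protein-coding genes of largest CV at a mean of 10 CPM or more. Transcription factors were taken by symbol patterns of DNA-binding families, without the ZNF and ZBTB genes. Groups and lists were chosen with earlier results of these data known. Promoters came from RefSeq (GRCh38.p14), with a sequence for 17 of the 20 genes. Where a symbol had several entries the first by position was taken. Shared 50-base stretches were counted over GENCODE transcripts, and a copy was taken as near-identical from 25% shared. Alternatives were TMM library sizes, another denominator, floor, filter or gene length, and each library left out. Values of some list members are not reported here.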

Additional observations from a re-analysis of the deposited data

How the results depend on the processing

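Without the mitochondrial genome and ribosomal protein genes, the 100 most abundant genes held 15.1% of the counts and 1 Nodal response gene was at 1 CPM in every library. Of the 20 genes by CPM, 12 were kept in TPM order and 10 with APPRIS principal transcript lengths, a choice made after the data were seen, where AHNAK came first because its principal transcript has 1024 bases against 19465 of merged exons. TPM1 came 2nd with the APPRIS lengths, with 1049 bases against 12876 of merged exons. CPM order kept 9 of the 15 transcription factors. At a floor of 0.5 CPM, 3 thymic epithelial, 2 neural and 1 Nodal response gene were detected. At a floor of 5 CPM the numbers were 2 for definitive endoderm, 0 for thymic epithelium, 1 for liver, 2 for endothelium and blood, 1 for cardiac muscle, 3 for Wnt and 5 for interferon response. With a library left out, Nodal response genes ranged from 0 to 1 and thymic epithelial genes from 1 to 2. The other class shares, except that of metallothioneins, moved by more than their SD with the other denominator, and 214 of 241 alternative values stayed near the reported one. No paired analysis was possible because no groups were compared. Depth limits genes under 3 counts, and 3 libraries limit every SD.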
